A study of Mus musculus with 18 samples.

Results

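Transcripts of 10 inflammatory CC chemokine genes, Ccl2, Ccl3, Ccl4, Ccl5, Ccl6, Ccl7, Ccl8, Ccl9, Ccl12 and Ccl24, were followed in metastasis-associated macrophages (MAMs), and Ccl3, Ccl4 and Ccl5 were also followed in NK cells and ILC1s. The genes were chosen by symbol, and all 10 were among the 13759 genes counted in MAMs. RNA came from female C57BL/6J mice of 8 to 10 weeks with liver metastases (LM) of MC38, a mouse colon adenocarcinoma line placed in the spleen, which was then removed, and livers were taken 20 days after injection. MAMs were sorted from LM as lineage-negative CD45+ CD11b+ cells with high (F4/80high) or lower (F4/80low, called F4/80int in the text of the study) F4/80 staining, with 3 libraries of each. Lymphocytes were sorted as NKp46+ cells, and each library pooled 6 to 8 samples of LM or of metastasis-free liver (MFL). The MFL gave NK cells (CD49a- CD49b+) and ILC1s (CD49a+ CD49b-), and the LM gave CD49a- NK cells (CD49b+) and CD49a+ NK cells (CD49b+), again in 3 libraries per population. LM was digested with enzymes and MFL was not, so site and dissociation cannot be told apart, and every mouse carried the tumor, so no group stands for a healthy liver. The titles of the LM CD49a+ NK libraries call them ILC1, and their population label was followed here. The lymphocyte libraries of a population came from independent sortings of such pools. For the MAMs neither pooling nor separate sortings are stated, so there p-values measure the spread between libraries, which may be technical.

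CC chemokines are small secreted proteins that guide leukocytes by binding G protein-coupled receptors. Ccl2, Ccl7 and Ccl12 are monocyte chemoattractant proteins that act mainly through Ccr2, the receptor that brings classical monocytes out of the bone marrow, while mouse Ccl8, of the same group, acts through Ccr8. Ccl3, Ccl4 and Ccl5 are made by activated macrophages, NK cells and T cells, and Ccl6 and Ccl9 are myeloid products that bind Ccr1. Ccl24 is an eotaxin, a ligand of the eosinophil receptor Ccr3 that is associated with alternatively activated macrophages.

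In GRCm39 (GENCODE vM39), 9 of the 10 genes lay on chromosome 11 in 2 stretches. The monocyte chemoattractant genes filled a stretch of 81.2 kb in the order Ccl2 (chr11:81926397-81928279), Ccl7 (chr11:81936532-81938351), Ccl12 (chr11:81992645-81994466) and Ccl8 (chr11:82006007-82007625), all on the plus strand, with Ccl11 as the other protein-coding gene between them. After a gap of 1409 kb, a stretch of 139 kb held Ccl5 (chr11:83416602-83425942), Ccl9 (chr11:83463745-83473161), Ccl6 (chr11:83478708-83483913) and Ccl3 (chr11:83538670-83540191) on the minus strand and Ccl4 (chr11:83553383-83555509) on the plus strand. Ccl24 lay on chromosome 5 (chr5:135598668-135601905, minus strand). Sharing of 31-base words, the word length of the index in the counting program, was computed on vM39 transcripts. The monocyte chemoattractant genes and Ccl4 shared none of theirs with transcripts of other genes. Ccl5, Ccl6 and Ccl24 shared under 1%, and Ccl9 shared 5.43%. Ccl3 shared 29.0%, mostly with the gene model Gm53692. Part of its reads could have been split between both if that model was among the transcripts used for counting, which was not checked.

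The 4 promoters below are shown because their genes were the neighbours that moved in opposite directions between the MAM subsets. Ccl12 and Ccl8 are next to each other in the first stretch and were higher in F4/80high MAMs, and Ccl9 and Ccl6 are next to each other in the second and were lower. The RefSeq promoter table used here held 5 of the 10 genes (Ccl3, Ccl6, Ccl8, Ccl9 and Ccl12; assembly GRCm38.p6), and the bases before the start site were located by an exact match to GRCm39. They are written 5′ to 3′ on the strand of the gene, without bases that GENCODE places in an exon. Capitals mark matches, on either strand, to GAGGAA (a core of sites for PU.1, the macrophage factor), TGANTCA (AP-1) or the NF-kB consensus.
Ccl12 (chr11:81992421-81992644, plus strand): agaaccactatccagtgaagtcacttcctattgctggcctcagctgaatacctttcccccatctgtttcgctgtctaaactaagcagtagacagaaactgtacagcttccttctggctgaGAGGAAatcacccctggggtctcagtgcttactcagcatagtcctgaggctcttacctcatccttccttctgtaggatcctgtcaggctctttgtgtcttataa
Ccl8 (chr11:82005761-82006006, plus strand): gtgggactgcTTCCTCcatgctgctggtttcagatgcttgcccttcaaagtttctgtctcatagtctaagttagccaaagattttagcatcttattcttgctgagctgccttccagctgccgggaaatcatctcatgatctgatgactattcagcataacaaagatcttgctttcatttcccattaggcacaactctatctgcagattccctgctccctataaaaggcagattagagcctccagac
Ccl9 (chr11:83469468-83469712, minus strand): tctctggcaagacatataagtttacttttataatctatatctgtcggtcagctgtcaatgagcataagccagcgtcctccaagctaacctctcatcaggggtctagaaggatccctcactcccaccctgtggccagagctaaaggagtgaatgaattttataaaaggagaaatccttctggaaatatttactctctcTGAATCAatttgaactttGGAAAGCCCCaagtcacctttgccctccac
Ccl6 (chr11:83483914-83484163, minus strand): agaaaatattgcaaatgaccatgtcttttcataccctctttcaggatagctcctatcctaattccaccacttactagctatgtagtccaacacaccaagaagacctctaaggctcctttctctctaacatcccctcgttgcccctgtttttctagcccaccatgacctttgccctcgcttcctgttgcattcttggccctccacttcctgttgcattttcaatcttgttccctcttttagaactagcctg
Ccl12 and Ccl8 each held 1 PU.1 match, and Ccl9 held 1 AP-1 and 1 NF-kB match in the last 53 bases before its start. The Ccl3 window, which is not shown, also held 1 PU.1 match, and Ccl3 was not called between the MAM subsets. Of 32851 mouse promoter windows of 250 bases, 23.3% held the PU.1 letters, 6.75% those of AP-1 and 7.25% those of NF-kB. No match to these or to TTCNNNGAA (a STAT site, in 7.02% of windows), the interferon-stimulated response element (in 2.98%) or the STAT6 consensus (in 5.85%) was found in the Ccl6 window. These are matches of letters and were not tested as binding sites. The Ccl9 and Ccl6 windows shared a run of 13 bases, gccctccacttcc, the longest among the pairs of the 5 windows, of which the last 4 bases in Ccl9 are among those left out above. For the Ccl9 window, the start is that of RefSeq, inside the longest GENCODE model of the gene.

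Total counts lay between 21278959 and 32267015 in the MAM libraries and between 8795721 and 14386834 in the lymphocyte libraries. Levels are counts per 1000000 reads (CPM) after TMM scaling, and levels of different genes are compared as CPM per kb of exon. MAMs and lymphocytes were prepared with different kits and are not compared with each other. The MAM subsets differed widely. At an adjusted p under 0.1 in edgeR's quasi-likelihood test, 54.9% of the 13759 genes were called, 27.8% as higher and 27.1% as lower in F4/80high MAMs. Of 12 macrophage markers, 11 were higher in F4/80high MAMs (summed 24440 to 33557 against 7817 to 9852 CPM), among them Adgre1, which encodes F4/80 (958 against 146 CPM, log2 fold change 2.71). All 10 classical monocyte markers were lower (3875 to 5025 against 7645 to 10565 CPM), and so were 9 of 10 dendritic cell markers (58.5 to 80.1 against 663 to 1283 CPM) and 9 of 10 neutrophil markers (80.8 to 116 against 373 to 634 CPM), with Ly6g and Camp not in the MAM table. In these bulk samples, fewer cells of a type and less RNA per cell cannot be told apart.

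Of the 10 chemokines, 5 were higher in F4/80high MAMs (Ccl2, Ccl4, Ccl7, Ccl8 and Ccl12), 4 were lower (Ccl5, Ccl6, Ccl9 and Ccl24), and Ccl3 was not called. The shares among all genes tested were 27.8% higher and 27.1% lower. The same 9 genes were those whose libraries did not overlap between the subsets, against 58.4% of all genes. The median log2 fold change was 0.69 over the 10 genes and 0.01 over all genes. In the plot of levels by library, Ccl12, Ccl7 and Ccl2 fell and Ccl6 and Ccl9 rose from F4/80high to F4/80low MAMs.

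**Figure D1:**
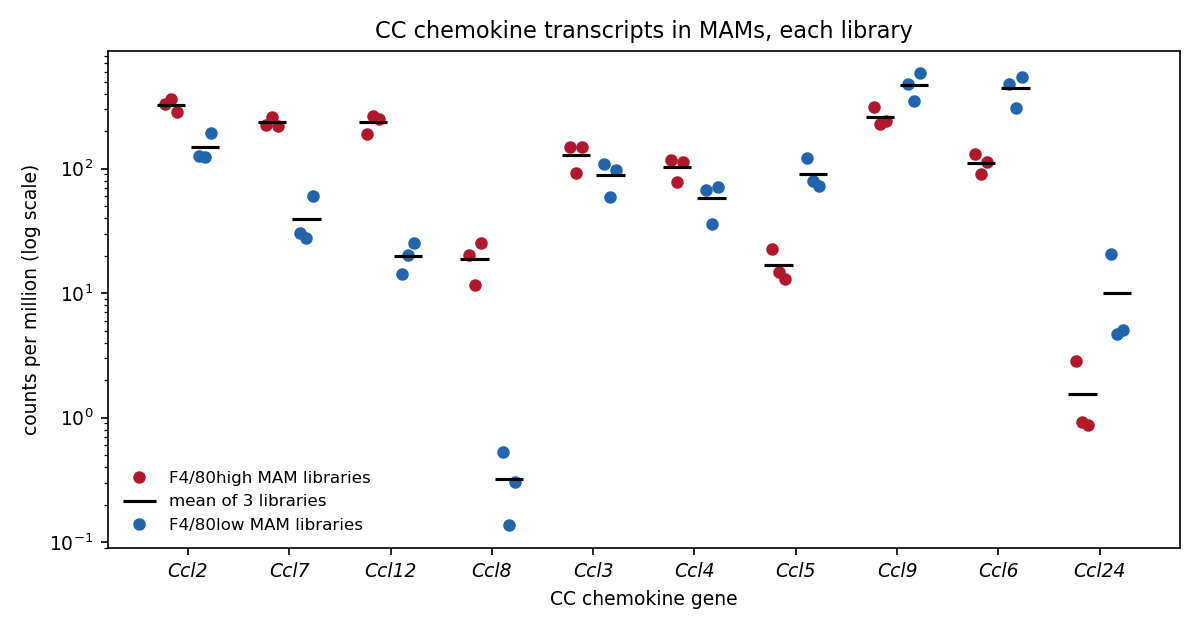
Level of each CC chemokine gene in CPM (log scale) in the 3 F4/80high and 3 F4/80low MAM libraries; points are libraries and lines are means. The F4/80high points of Ccl2, Ccl7, Ccl12, Ccl8 and Ccl4 lie above all F4/80low points, those of Ccl5, Ccl9, Ccl6 and Ccl24 lie below, and those of Ccl3 overlap.

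The monocyte chemoattractant genes were all higher in F4/80high MAMs, with folds between 2.19 and 57.7. Ccl2, the main ligand of Ccr2, stood at 328, 361 and 286 CPM in the F4/80high libraries and at 126, 125 and 194 CPM in the F4/80low libraries. The groups did not overlap, and the log2 fold change was 1.13 ± 0.18 (SE, n = 3 and 3, edgeR adjusted p = 0.00120). Ccl7, which lies next to Ccl2 and shares its receptor, stood at 225, 262 and 219 CPM against 30.5, 27.6 and 59.8 CPM. Its lowest F4/80high library was more than 3 times its highest F4/80low library, and the log2 fold change was 2.59 ± 0.28 (adjusted p = 0.000149). Ccl12, a further Ccr2 ligand found in mice, stood at 191, 266 and 251 CPM against 14.2, 20.4 and 25.3 CPM, a log2 fold change of 3.57 ± 0.22 (adjusted p = 9.64e-06). Ccl8 stood at 20.2, 11.6 and 25.1 CPM in F4/80high MAMs and was close to absent from F4/80low MAMs, with 16, 4 and 7 counts (0.525, 0.137 and 0.303 CPM). Its log2 fold change of 5.85 ± 0.45 (adjusted p = 2.69e-05) was the largest of the 10 genes in size. Within the stretch, the fold change was larger for each gene farther from Ccl2, over 4 genes. Under the alternatives of tool, scaling, filter and libraries left out, all 4 genes stayed called, with log2 fold changes from 1.02 to 1.37 for Ccl2, 2.39 to 3.02 for Ccl7, 3.36 to 3.77 for Ccl12 and 5.46 to 6.45 for Ccl8. Beside the macrophage markers above, 5 of 7 Kupffer cell markers were higher in the same libraries and 1 was lower (summed 76.8 to 105 against 15.1 to 22.1 CPM), and of 9 fibroblast and endothelium markers 5 were higher and 3 lower (275 to 575 against 88.8 to 195 CPM). Of 3 platelet markers 1 was higher and 1 lower (114 to 139 against 8.85 to 28.6 CPM). The part of these cells in the differences of the monocyte chemoattractant genes and of Ccl4 was not tested.

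**Figure D2:**
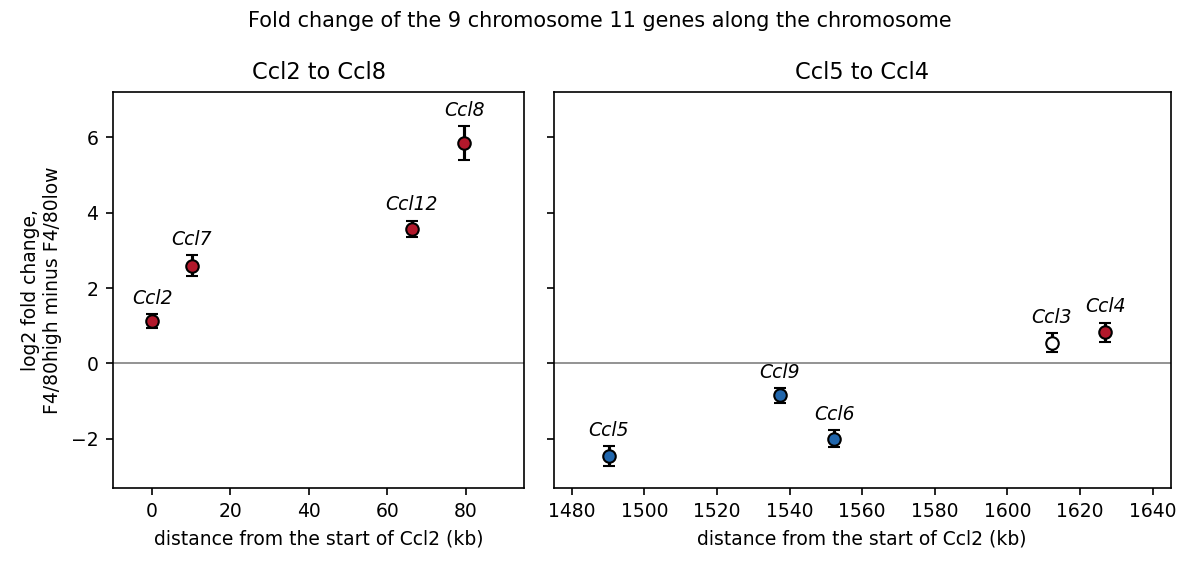
Log2 fold change (F4/80high minus F4/80low MAMs) with its SE against the distance of each chromosome 11 chemokine gene from the start of Ccl2 in kb; the left panel holds Ccl2 to Ccl8 and the right panel Ccl5 to Ccl4. Filled points are called at an adjusted p under 0.1 (red higher, blue lower) and the open point, Ccl3, is not. The 4 genes at left lie between 1.13 and 5.85, and at right Ccl5, Ccl9 and Ccl6 lie below 0.

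Ccl3 and Ccl4, which lie next to each other at the far end of the second stretch, had, with Ccl9, the smallest fold changes of the 10 genes in size. Ccl4 stood at 118, 78.8 and 113 CPM in F4/80high MAMs and at 67.0, 36.1 and 71.7 CPM in F4/80low MAMs. The groups did not overlap, and the log2 fold change of 0.83 ± 0.26 was called (adjusted p = 0.0273). Ccl3 stood at 149, 92.3 and 149 CPM against 110, 58.7 and 97.6 CPM, so that the lowest F4/80high library fell among the F4/80low libraries. Its log2 fold change of 0.55 ± 0.25 (95% interval -0.03 to 1.13) was just outside the threshold (adjusted p = 0.106). Of 11 alternatives, 5 called it, which were DESeq2 (adjusted p = 0.0430), limma-voom (0.0494), the replicate number as a block (0.00241) and leaving out F4/80low replicate 1 (0.0701) or F4/80high replicate 2 (0.0364), and the highest adjusted p was 0.252. In both subsets the second replicate held the lowest level of both genes. The ratio of Ccl3 to Ccl4 counts within a library, which does not depend on scaling and was computed after the values were seen, was 1.26, 1.17 and 1.32 in F4/80high and 1.64, 1.63 and 1.36 in F4/80low MAMs. The ratios did not overlap and were not tested.

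Ccl5, which attracts T cells and monocytes, went the other way from Ccl4. It stood at 22.5, 14.7 and 13.0 CPM in F4/80high MAMs and at 122, 78.9 and 72.7 CPM in F4/80low MAMs, a 5.49-fold higher level in F4/80low. The log2 fold change was -2.46 ± 0.26 (edgeR adjusted p = 0.000134). Of 9 NK cell and ILC1 markers, 8 were lower in F4/80high MAMs (summed 4.75 to 13.0 against 67.2 to 120 CPM), with Ncr1, which encodes the NKp46 of the lymphocyte sort, not in the MAM table. The dendritic cell markers above were lower too. Of 11 T cell markers 3 were lower, a share near that of all genes, with overlapping sums (8.68 to 20.8 against 13.3 to 33.2 CPM), and of 6 B cell markers 2 were higher (130 to 222 against 92.3 to 153 CPM). The part of these cells in the Ccl5 difference was not tested.

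Ccl6 and Ccl9, neighbouring genes whose products bind Ccr1, were both lower in F4/80high MAMs. Ccl6 stood at 131, 89.8 and 113 CPM against 477, 308 and 546 CPM in F4/80low MAMs, a 3.99-fold higher level in F4/80low (log2 fold change -2.00 ± 0.22, edgeR adjusted p = 0.000178). Ccl9 stood at 312, 227 and 244 CPM against 476, 347 and 583 CPM. The gap between its groups was narrow, from 312 to 347 CPM, and the log2 fold change was -0.85 ± 0.20 (adjusted p = 0.00776). Replicate 2 held the lowest level of both genes in both subsets. Classical monocyte and neutrophil markers were lower in the same libraries, as given above. So were the 2 of 6 tumor epithelium markers that were in the MAM table (summed 8.30 to 11.8 against 197 to 281 CPM). Krt8, Krt18, Krt19 and Cldn4 were not in it. The part of these cells in the Ccl6 and Ccl9 differences was not tested.

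Ccl24 was the scarcest of the 10 genes in F4/80high MAMs, at 2.84, 0.921 and 0.876 CPM, and stood at 20.5, 4.68 and 5.02 CPM in F4/80low MAMs. The groups did not overlap (log2 fold change -2.74 ± 0.70, adjusted p = 0.0121), but replicate 1 was the highest library of both subsets, more than 4 times the other F4/80low libraries and more than 3 times the other F4/80high libraries. The log2 fold change was -1.68 (adjusted p = 0.0314) without F4/80low replicate 1 and -3.49 (adjusted p = 0.00900) without F4/80high replicate 1. Of 4 eosinophil markers in the table, 3 were lower in F4/80high MAMs (summed 5.67 to 7.88 against 79.9 to 116 CPM), led by Ear2, while the granule genes Epx and Prg2 were not in the MAM table. Their part in the Ccl24 difference was not tested.

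Per kb of exon, the chemokine make-up of the subsets differed. In F4/80high MAMs the highest levels were those of Ccl12 (294 ± 49.2 CPM per kb, SD, n = 3), Ccl7 (292 ± 28.6) and Ccl2 (285 ± 32.8), which did not differ beyond their spread. Ccl3 (167 ± 42.0) and Ccl4 (150 ± 31.2) followed, also within their spread of each other, though Ccl3 was above Ccl4 within each F4/80high library. Below them came Ccl9 (83.8 ± 14.6), Ccl6 (61.1 ± 11.3), Ccl8 (36.9 ± 13.3), Ccl5 (16.3 ± 4.91) and Ccl24 (1.09 ± 0.788). In F4/80low MAMs, Ccl6 (244 ± 67.3) led, followed by Ccl9 (151 ± 38.1), Ccl2 (130 ± 34.7), Ccl3 (114 ± 34.3), Ccl5 (88.9 ± 26.4) and Ccl4 (84.8 ± 28.2), whose neighbours in this order overlapped in their spread. Within each F4/80low library, Ccl6 was above Ccl9 and Ccl9 above Ccl2, while the order of Ccl2, Ccl3, Ccl5 and Ccl4 changed between libraries. Ccl7 (48.7 ± 22.1), Ccl12 (24.9 ± 6.93), Ccl24 (7.09 ± 6.37) and Ccl8 (0.624 ± 0.379) were lowest. With the mean transcript length in place of the merged exons, Ccl6 stood at 489 ± 135 and Ccl5 at 159 ± 47.2 in F4/80low MAMs, where Ccl5 was then the third in order.

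Of the summed level per kb of the 10 genes, Ccl2, Ccl7, Ccl8 and Ccl12 took 60.1%, 72.8% and 63.4% in the F4/80high libraries and 17.5%, 25.8% and 25.9% in the F4/80low libraries. Ccl6 and Ccl9 took 12.3%, 8.95% and 10.1% against 43.5%, 42.6% and 45.6%. Ccl3 and Ccl4 took 22.9% ± 4.99 and 22.0% ± 2.81 (SD, n = 3). Ccl5 took 1.17% ± 0.342 and 10.3% ± 3.17. These shares follow from the levels above and were not tested separately.

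**Figure D3:**
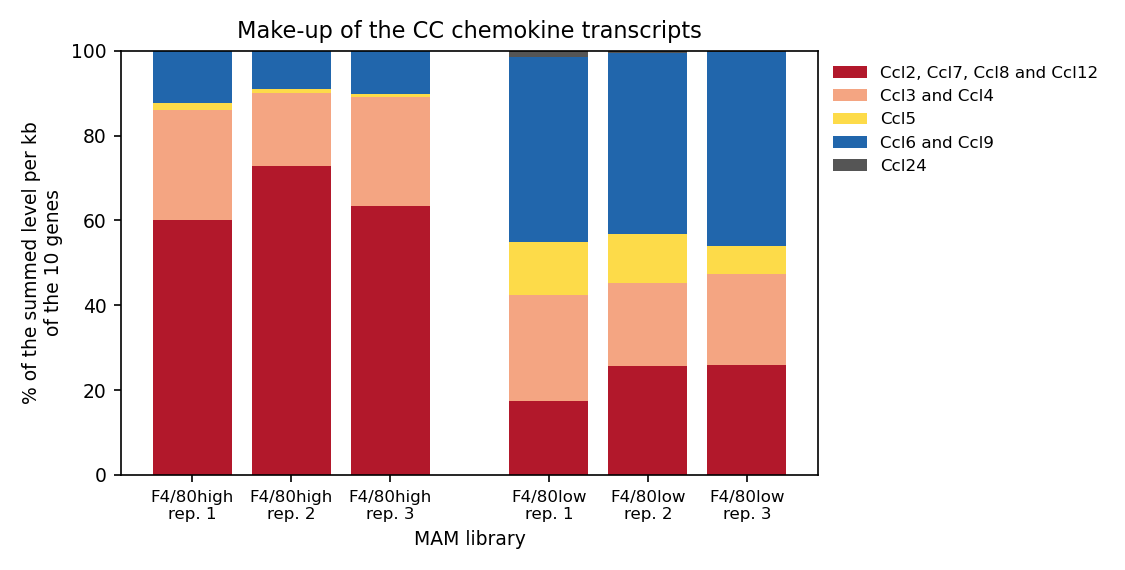
Share of each group of chemokine genes in the summed level per kb of the 10 genes, in percent, for each MAM library as a stacked bar from 0 to 100. The monocyte chemoattractant genes (Ccl2, Ccl7, Ccl8 and Ccl12) take 60.1% to 72.8% of the F4/80high bars and 17.5% to 25.9% of the F4/80low bars.

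Among the other CC chemokines, 4 of 11 listed were in the MAM table, and 2 of them were lower in F4/80high MAMs. These were Ccl17, at 1.22, 1.67 and 1.04 CPM against 148, 112 and 83.7 CPM (log2 fold change -6.45 ± 0.28, adjusted p = 2.05e-06), and Ccl22, at 4.95, 4.00 and 4.99 CPM against 511, 352 and 285 CPM (-6.36 ± 0.26, adjusted p = 1.81e-06). Both are ligands of Ccr4. Dendritic cells are among their sources, and dendritic cell markers were lower in the same libraries. The part of these cells in the Ccl17 and Ccl22 differences was not tested. Ccl25 and Ccl27a were not called. Among the receptors, Ccr2, the receptor of Ccl2, Ccl7 and Ccl12, was lower in F4/80high MAMs (463 ± 53.9 against 1371 ± 19.0 CPM, log2 fold change -1.56 ± 0.11, adjusted p = 1.40e-05), so that it and its ligands were highest in different subsets. Ccrl2, an atypical receptor that does not signal to migration, and Ccr8 were lower, and Ccr1 and Ccr3 were not called; the receptors named here are not all of those tested. Ccr8 rested on 9, 3 and 1 counts against 41, 38 and 4.

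Genes of the NF-kB pathway, inflammatory cytokine genes, interferon response genes and immediate-early genes were mostly lower in F4/80high MAMs. Of 20 genes of the NF-kB pathway and its feedback, 16 were lower and none was higher (median log2 fold change -0.89), led by Relb (-1.65), Rel (-1.61), Nfkbia (-1.61) and Nfkbie (-1.50). Of 14 inflammatory cytokine and mediator genes in the table, 8 were lower, with Cxcl3 (-4.65), Il6 (-4.60), Il12b (-3.41) and Nos2 (-3.25) changing most. Il10 (1.39) and Csf1 (0.93) were called as higher, but the libraries of both overlapped between the subsets. Of 15 interferon response genes, 11 were lower (median -0.65), led by Isg15 (-1.11), and none was higher. Of 18 immediate-early genes, 14 were lower (median -1.07), led by Nr4a1 (-2.83), and Fosl1 (1.63) was higher. Of 14 genes tied to alternative activation, 4 were higher, with Mrc1 (2.59) first, and 8 were lower, with Mgl2 (-4.03) first. The share of all genes called was 27.8% higher and 27.1% lower, as above. These are RNA levels of pathway genes and of their targets, not measures of pathway activity. Dendritic cell and neutrophil markers were lower in the same libraries, as given above. The link of these genes or cells to the chemokine levels was not tested.

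Among the lymphocytes, Ccl5 was the most abundant of the 3 genes followed, in CPM per kb of exon, in each of the 4 populations, with 2157 ± 692 in MFL NK cells, 1758 ± 263 in LM CD49a- NK cells, 1200 ± 203 in MFL ILC1s and 813 ± 310 in LM CD49a+ NK cells (SD, n = 3). Ccl3 and Ccl4 lay between 97.9 ± 41.3 and 392 ± 36.2 CPM per kb. Each of the 3 genes had its lowest mean in LM CD49a+ NK cells. In CPM, Ccl5 stood at 2994, 2049 and 1602 in MFL NK cells, at 1555, 1769 and 2092 in LM CD49a- NK cells, at 992, 1361 and 1344 in MFL ILC1s and at 499, 873 and 1133 in LM CD49a+ NK cells. The NK cell libraries of both sites overlapped, as did the ILC1 and LM CD49a+ NK libraries, and all NK cell libraries without CD49a lay above all CD49a+ libraries.

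LM CD49a+ NK cells were compared with MFL NK cells to ask how CD49a+ NK cells of the metastasis differ from NK cells of the uninvolved liver, and Ccl5 was called as lower (log2 fold change -1.41 ± 0.30, 2.65-fold higher in MFL NK cells, edgeR adjusted p = 0.0480), where 0.221% of 13594 genes were called as lower. The call was lost without MFL NK replicate 1 (adjusted p = 0.292), MFL NK replicate 2 (0.121) or LM CD49a+ NK replicate 1 (0.224), and when the fit held the compared populations alone (0.162), over a range from 2.85e-07 to 0.292. Ccl3 stood at 80.0, 42.1 and 106 CPM in LM CD49a+ NK cells and at 336, 285 and 291 CPM in MFL NK cells. The groups were far apart, yet the log2 fold change of -2.00 ± 0.48 (adjusted p = 0.103) was just outside the threshold, and 9 of 18 alternatives called it, among them DESeq2 (adjusted p = 0.00675). Those included leaving out LM CD49a- NK replicate 2 (0.00600) or replicate 3 (0.0469) or MFL ILC1 replicate 2 (0.0867) or replicate 3 (0.0959), which are not in the comparison and enter through the shared spread. Ccl4 stood at 77.6, 43.3 and 111 CPM against 217, 179 and 154 CPM, and was not called (log2 fold change -1.24 ± 0.45, adjusted p = 0.392). Of the 3 genes, all had groups that did not overlap and were lower, against 13% of all genes. Macrophage markers were also scarcer in LM CD49a+ NK libraries (summed 1.36 to 48.9 against 86.7 to 185 CPM over 12 markers, none of the 4 tested called), and so were hepatocyte markers (0 to 13.1 against 17.1 to 119 CPM, none of 5 tested called). Tumor epithelium markers were higher (23.8 to 51.5 against 0.295 to 2.53 CPM, 1 of 2 tested called), as were the sums of T cell markers (319 to 500 against 143 to 241 CPM, none of 8 tested called), B cell markers (117 to 121 against 30.4 to 73.1 CPM, none of 2) and fibroblast and endothelium markers (222 to 292 against 86.6 to 140 CPM, none of 3). Their part was not tested.

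**Figure D4:**
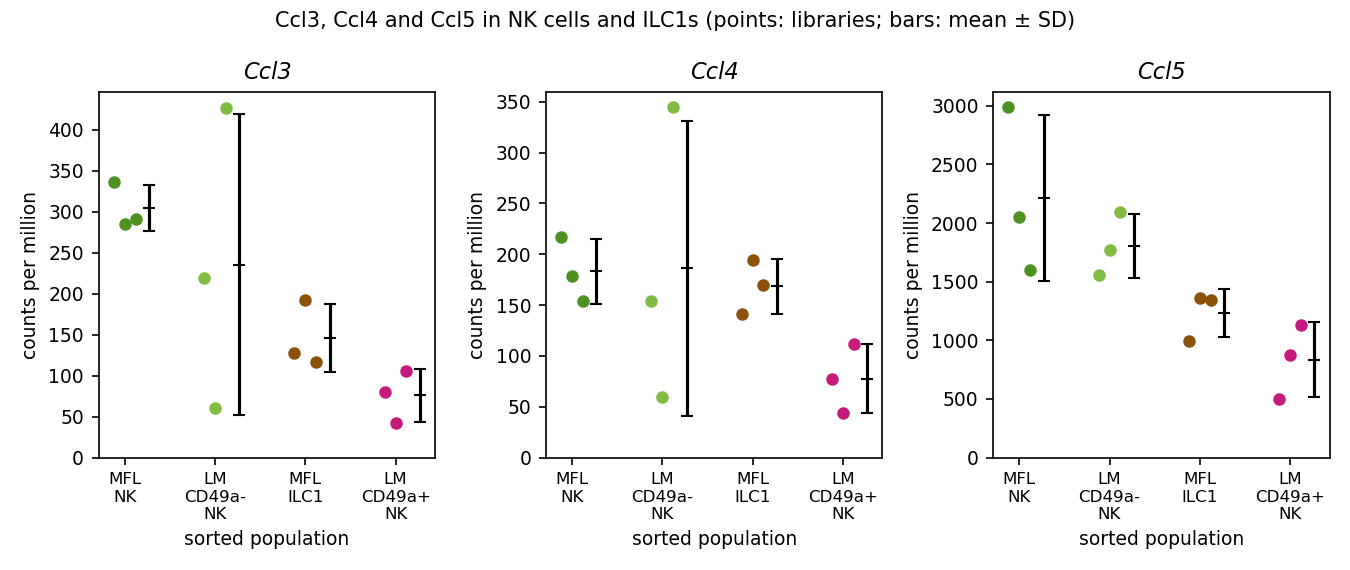
Level of Ccl3, Ccl4 and Ccl5 in CPM in the 3 libraries (points) of each sorted lymphocyte population, with the mean and SD (bars); each axis starts at 0. LM CD49a+ NK libraries lie below all MFL NK libraries for the 3 genes, and LM CD49a- NK libraries range from 60.3 to 427 CPM for Ccl3.

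Within LM, the CD49a+ and CD49a- NK cells were compared to ask what goes with CD49a in the metastasis. None of the 3 genes was called by edgeR, where 0.0736% of genes were called as lower. All 3 passed an unadjusted edgeR p of 0.05, as did 1579 of 13594 genes in either direction. DESeq2 called 2, Ccl3 and Ccl5, among 543 of 13293 genes called in either direction. LM CD49a- NK cells varied most, with Ccl3 at 219, 60.3 and 427 CPM and Ccl4 at 154, 59.8 and 344 CPM, so that replicate 2 held the lowest and replicate 3 the highest value of both genes. In LM CD49a+ against LM CD49a- NK cells, the log2 fold change was -1.63 ± 0.48 for Ccl3 (adjusted p = 0.283) and -1.27 ± 0.45 for Ccl4 (adjusted p = 0.366), with overlapping groups. Without LM CD49a- NK replicate 2, both were called, at -2.09 (adjusted p = 0.0309) and -1.69 (adjusted p = 0.0813). Without LM CD49a- NK replicate 3 they were -0.89 (adjusted p = 0.324) and -0.47 (adjusted p = 0.561). Over all alternatives the adjusted p ran from 6.22e-06 to 1.00 for Ccl3 and from 0.00609 to 1.00 for Ccl4. Ccl5 did not overlap and differed by -1.11 ± 0.30 (adjusted p = 0.270), against 4.1% of genes lower without overlap. T cell markers were higher in the CD49a+ libraries (summed 319 to 500 against 160 to 297 CPM, none of 8 tested called), and so were those of tumor epithelium (23.8 to 51.5 against 0 to 4.41 CPM, none of 2) and B cells (117 to 121 against 15.9 to 83.2 CPM, none of 2). Their part was not tested.

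Between the CD49a- NK cells of both sites, none of the 3 genes was called, where 0.00736% of genes were called as lower. The log2 fold changes (LM minus MFL) were -0.37 for Ccl3 (95% interval -1.35 to 0.62), 0.02 for Ccl4 (-0.91 to 0.96) and -0.29 for Ccl5 (-0.91 to 0.33), so changes of up to these sizes were not excluded. None of the 3 passed an unadjusted edgeR p of 0.05, which 914 of 13594 genes did in either direction. DESeq2 called 0 of them and 161 of 13293 genes in either direction.

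Between the populations of MFL, ILC1s had less Ccl3 than NK cells without overlap, at 128, 193 and 116 CPM against 336, 285 and 291 CPM, but the log2 fold change of -1.06 ± 0.47 was not called (adjusted p = 0.511), where 1.68% of genes were called as lower and 13.1% were lower without overlap. Ccl4 stood at 141, 195 and 169 CPM in ILC1s and at 217, 179 and 154 CPM in NK cells, with a log2 fold change of -0.12 (95% interval -1.05 to 0.81). Ccl5 did not overlap and was not called (-0.85 ± 0.30, adjusted p = 0.227). Of the 3 genes, Ccl3 and Ccl5 passed an unadjusted edgeR p of 0.05, as did 1138 of 13594 genes in either direction. DESeq2 called 1, Ccl5, among 667 of 13293 genes called in either direction. T cell markers were higher in the ILC1 libraries (summed 717 to 1076 against 143 to 241 CPM, 2 of 8 tested called), as were those of tumor epithelium (59.3 to 95.2 against 0.295 to 2.53 CPM, 1 of 2). Sums of neutrophil markers (107 to 167 against 3.30 to 9.07 CPM, mostly Mmp9 in ILC1s, 1 of 2) and B cell markers (138 to 184 against 30.4 to 73.1 CPM, none of 2) were higher too. The neutrophil markers Ly6g, Cxcr2, Retnlg, Camp, Ngp and Ltf and the B cell markers Cd79a and Pax5 had no counts in either population. Classical monocyte markers were lower (206 to 346 against 1163 to 1442 CPM, 2 of 6 tested called), as were macrophage markers (23.3 to 60.5 against 86.7 to 185 CPM, 1 of 4). Their part was not tested.

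LM CD49a+ NK cells and MFL ILC1s, the populations that share CD49a, were compared across sites, and none of the 3 genes was called, where 1.29% of genes were called as lower. Ccl3 (-0.94 ± 0.48, adjusted p = 0.395) and Ccl4 (-1.12 ± 0.45, adjusted p = 0.259) were lower in LM CD49a+ NK cells without overlap, against 13.9% of genes. Ccl5 overlapped (-0.56 ± 0.30, adjusted p = 0.427). Ccl4 passed an unadjusted edgeR p of 0.05, as did 1913 of 13594 genes in either direction. DESeq2 called 0 of the 3 genes and 1010 of 13293 genes in either direction. Classical monocyte markers were higher in LM CD49a+ NK libraries (summed 871 to 1260 against 206 to 346 CPM, 4 of 6 tested called) and neutrophil markers lower (0 to 2.50 against 107 to 167 CPM, mostly Mmp9). T cell markers were lower too (319 to 500 against 717 to 1076 CPM, 1 of 8 tested called), and so were those of hepatocytes (0 to 13.1 against 35.5 to 90.2 CPM, none of 5) and tumor epithelium (23.8 to 51.5 against 59.3 to 95.2 CPM, none of 2). Their part was not tested. These comparisons share libraries with those above and are not independent of them.

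The ratio of Ccl3 to Ccl4 counts was highest in MFL NK cells. It was 1.55, 1.59 and 1.90 in MFL NK cells and 1.42, 1.01 and 1.24 in LM CD49a- NK cells, so every MFL NK library lay above every LM CD49a- NK library. It was 0.907, 0.990 and 0.687 in MFL ILC1s and 1.03, 0.971 and 0.951 in LM CD49a+ NK cells, which overlapped. The ratio is free of scaling, was chosen after the values were seen and was not tested. Since Ccl3 and Ccl4 were unlike in ILC1s against NK cells of MFL (-1.06 and -0.12 on the log2 scale), the ratio there moved more with Ccl3 than with Ccl4.

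**Figure D5:**
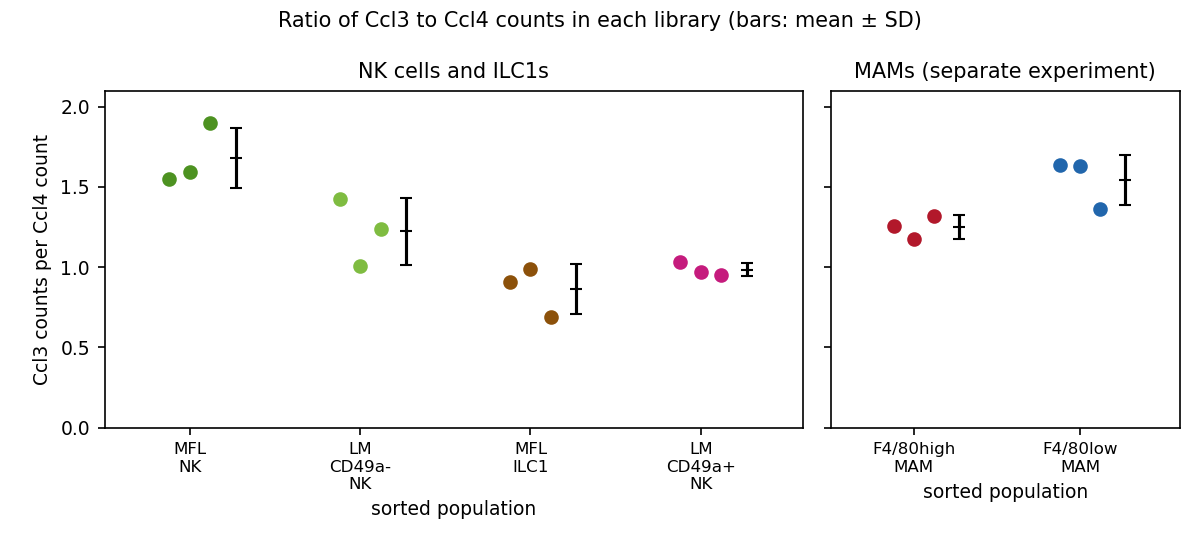
Counts of Ccl3 per count of Ccl4 in each library (points), with the mean and SD (bars), for the 4 lymphocyte populations (left) and the 2 MAM subsets (right), which come from separate experiments; the axis starts at 0. MFL NK libraries lie between 1.55 and 1.90, MFL ILC1 libraries between 0.687 and 0.990, and F4/80low MAM libraries above F4/80high MAM libraries.

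Over the 12 lymphocyte libraries, Ccl3 and Ccl4 were the genes most like each other among 9758 genes with a mean of at least 5 CPM (Pearson r = 0.93 of log2 CPM). This is a description over libraries of 4 populations that differed in depth and, between LM and MFL, in dissociation. The part of these differences in the correlations was not tested. After Ccl4, the genes most like Ccl3 were Vamp2 (r = 0.88), Arhgef3 (0.88), Elf2 (0.87) and Anks3 (0.87), and after Ccl3 those most like Ccl4 were Vamp2 (0.86), Trim26 (0.86), Kbtbd2 (0.85) and Ddx5 (0.85). Ccl5 was most like Lbr (0.92), Itgb2 (0.92), Piezo1 (0.91), Atp2a3 (0.90) and Bcap31 (0.89), and less like Ccl3 (0.68) and Ccl4 (0.60).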

How the data were processed

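RNA of sorted lymphocytes (12 libraries, total RNA kit) and MAMs (6 libraries, poly(A) kit) had been sequenced. The authors trimmed reads with Trim Galore, quantified them with Salmon (1.5.0 for lymphocytes, 1.10.0 for MAMs) against GENCODE transcripts of GRCm39 and deposited estimated counts per gene as whole numbers, without normalization (54309 genes for lymphocytes; 13759 for MAMs, lowest total 37). Low genes had thus been left out of the MAM table. Counts assigned by transcript can be split between genes that share sequence.

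Groups followed the population labels. Symbols came from GENCODE vM39 (13726 of 13759 and 53700 of 54309 IDs matched). Each table was fitted separately in edgeR 4.0.16 (R 4.3.3; filterByExpr, which kept 13759 and 13594 genes, TMM, quasi-likelihood test), with Benjamini-Hochberg adjustment over all genes and calls at 0.1, the threshold of the study. SEs are approximate, and 95% intervals use the t distribution with each gene's total degrees of freedom in that fit. log2 CPM used a prior count of 2. The code was tested on simulated data. The alternatives were DESeq2 1.42.0, limma 3.58.1 (voom with sample weights), DESeq2 size factors, no filter, a replicate block, each library left out, the compared populations alone and another length. Plots used matplotlib 3.10.9. With 3 libraries a group, precision is limited by their spread rather than by depth, and counting error alone is smaller than it.

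The members, gene lists and tests were chosen with earlier results of these data known. Genes named beside the members are, per list, up to 4 called genes with the largest change in each direction, and the 5 genes with the highest correlation with Ccl3, Ccl4 and Ccl5. Receptors and other CC chemokines named beyond that were chosen after their values were seen. A gene of the lists is not reported here.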

Additional observations from a re-analysis of the deposited data

Results flagged for a closer look

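The lymphocyte table also held the 7 chemokine genes that were not followed there. Ccl9 had over 3 counts, the limit that a count of 0 allows, in 8 of the 12 libraries, with a highest count of 127 in LM CD49a- NK replicate 3, the library that also held the highest Ccl3 and Ccl4 of its group. Ccl6 had over 3 counts in 4 libraries, with a highest count of 54 in MFL ILC1 replicate 2. Ccl2 had 4 counts in that same library and 0 in the other 11. Ccl7, Ccl8, Ccl12 and Ccl24 had 0 counts in all 12 libraries.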

How the results depend on the processing

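In MAMs, the 9 calls kept their direction and side of the threshold under all 11 alternatives, and 5 or 6 genes were called as higher and 4 as lower whichever library was left out. In lymphocytes, the count of Ccl3, Ccl4 and Ccl5 called as lower in LM CD49a+ against MFL NK cells was 1 and went to 2 with DESeq2, limma-voom or the replicate block and 3 without the filter, and lay between 0 and 2 with a library left out. From 0, it went to 2 with DESeq2, 3 without the filter and 0 to 2 with a library left out for LM CD49a+ against LM CD49a- NK cells. For ILC1 against MFL NK cells it went to 1 with DESeq2, 2 with limma-voom, 2 without the filter and 2 with the compared populations alone, and for LM CD49a+ NK cells against ILC1 to 1 with limma-voom, 2 without the filter and 0 to 1 with a library left out. The cause was not tested. No setting called any of the 3 genes between LM CD49a- and MFL NK cells. Log2 fold changes that changed sign, none of them called, were those of Ccl4 in ILC1 against MFL NK cells (0.068 with limma-voom, 0.015 without MFL NK replicate 1, range with a library left out -0.240 to 0.015), of Ccl4 in LM CD49a- against MFL NK cells (-0.217 with the replicate block, -0.0895 without MFL NK replicate 3, -0.783 without LM CD49a- NK replicate 3, range -0.783 to 0.442) and of Ccl3 in the latter comparison (0.0839 without LM CD49a- NK replicate 2, range -1.13 to 0.0839). Genes called in either direction numbered 7555 by edgeR and 7200 by DESeq2 in MAMs, and 19 and 543, 10 and 161, 88 and 365, 416 and 667, and 486 and 1010 in the 5 lymphocyte comparisons in the order LM CD49a+ against LM CD49a- NK, LM CD49a- against MFL NK, LM CD49a+ against MFL NK, ILC1 against MFL NK and LM CD49a+ NK against ILC1. In the same order limma-voom called 0, 104, 307, 2645 and 935, edgeR without the filter 200, 158, 371, 599 and 774, and with the compared populations alone 3, 3, 94, 1228 and 476, and leaving out a library gave 5 to 267, 1 to 110, 26 to 168, 268 to 562 and 257 to 708. Over all genes, deviations of libraries with the same replicate number were weakly correlated (0.17, -0.01 and 0.03 in MAMs and -0.05 to 0.10 in lymphocytes). In MAMs, however, most of the chemokine genes varied alike by replicate number in the levels given above. Replicate 2 held the lowest level of Ccl3, Ccl4, Ccl6, Ccl8 and Ccl9 in both subsets. Replicate 1 held the highest level of Ccl5 and Ccl24 and the lowest of Ccl12 in both. The block lowered the SE of Ccl3 from 0.252 to 0.0861, of Ccl5 from 0.258 to 0.0836 and of Ccl24 from 0.698 to 0.199. It raised only that of Ccl2, from 0.180 to 0.187. Whether a shared number means a shared sorting of MAMs is not stated. Under the block Ccl3 was called in MAMs (edgeR adjusted p = 0.00241), and the block changed no other call than those given here.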
